A study of Mus musculus with 6 samples.

Results

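Complement genes made by fibroblasts are described here through 9 members: the activating components C1ra, C1s1, C4b, C2, Masp1, C3 and Cfb, and the regulators Serping1 and Cd55. The rule names these genes, found through their Ensembl identifiers in the GENCODE M21 annotation, and sets no threshold on their values. They are 9 of the 55426 features in the count table, and all 9 were among the 16207 genes with enough counts to be tested. The RNA came from primary pancreatic stellate cells (PSCs), resident fibroblast precursors of the pancreas, of wild-type C57BL/6 mice. The PSCs lay in Matrigel on a transwell insert above mT3 tumor organoids, a pancreatic ductal adenocarcinoma (PDAC) line derived from the KPC mouse model. After 48 h at 21% O2 (normoxia, 3 samples) or at 1% O2 (hypoxia, 3 samples), poly(A) RNA of the PSCs was sequenced. The organoids shared the O2 level of the PSCs in both groups, so a direct response of the PSCs to O2 and a response to hypoxic organoids cannot be told apart. The mice used for PSC isolation were male and female, 8 to 12 weeks old. Whether the replicates were separate PSC isolates is not given in the sources used here, so the p-values measure the spread between these samples, which may be technical.

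Complement is a cascade of plasma proteins that tags cells and debris for removal and can open pores in membranes. In the classical pathway the recognition protein C1q carries the proteases C1r and C1s, of which C1r activates C1s and C1s cuts C4 and C2. The lectin pathway reaches the same substrates through mannan-binding lectin proteases such as the product of Masp1. The fragments of C4 and C2 form an enzyme that cuts C3, the central component, and the alternative pathway builds a second C3-cutting enzyme from C3 itself, factor B (Cfb) and factor D (Cfd). C1 inhibitor, the product of Serping1, is a secreted inhibitor that inactivates C1r, C1s and the lectin pathway proteases, while CD55 (decay-accelerating factor) sits on the cell surface and takes the C3-cutting enzymes apart. Most circulating complement is made by the liver, but fibroblasts, including those of tumors, are a known local source of C3, C4, C1r, C1s and C1 inhibitor. In the mouse, C4b is the gene for complement C4 and is not to be read as the cleavage fragment of that name.

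Serping1 rose in hypoxia, C2 and Cd55 fell, and the other 6 members were not called in either direction. A gene was called where its linear fold change exceeded 1.5 and its Benjamini-Hochberg adjusted p in edgeR's quasi-likelihood test over all 16207 genes was below 0.05. All levels are CPM, counts scaled to equal library size with edgeR's trimmed mean of M values, and log2 fold changes are hypoxia over normoxia. Of the 9 members 1 was called higher, where 18.9% of all tested genes were, and 2 were called lower, where 15.3% were. An adjusted p below 0.05 at any fold was reached by 5 members, beside 62.7% of all tested genes. The normoxic and hypoxic samples of a gene did not overlap for 5 members, 3 with the hypoxic samples above and 2 with them below, beside 68.9% of all tested genes. These shares over all genes are so large that the number of members called is no finding by itself, and the members are described one at a time. The median log2 fold change was 0.21 over the 9 members and -0.004 over all tested genes.

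**Figure D1:**
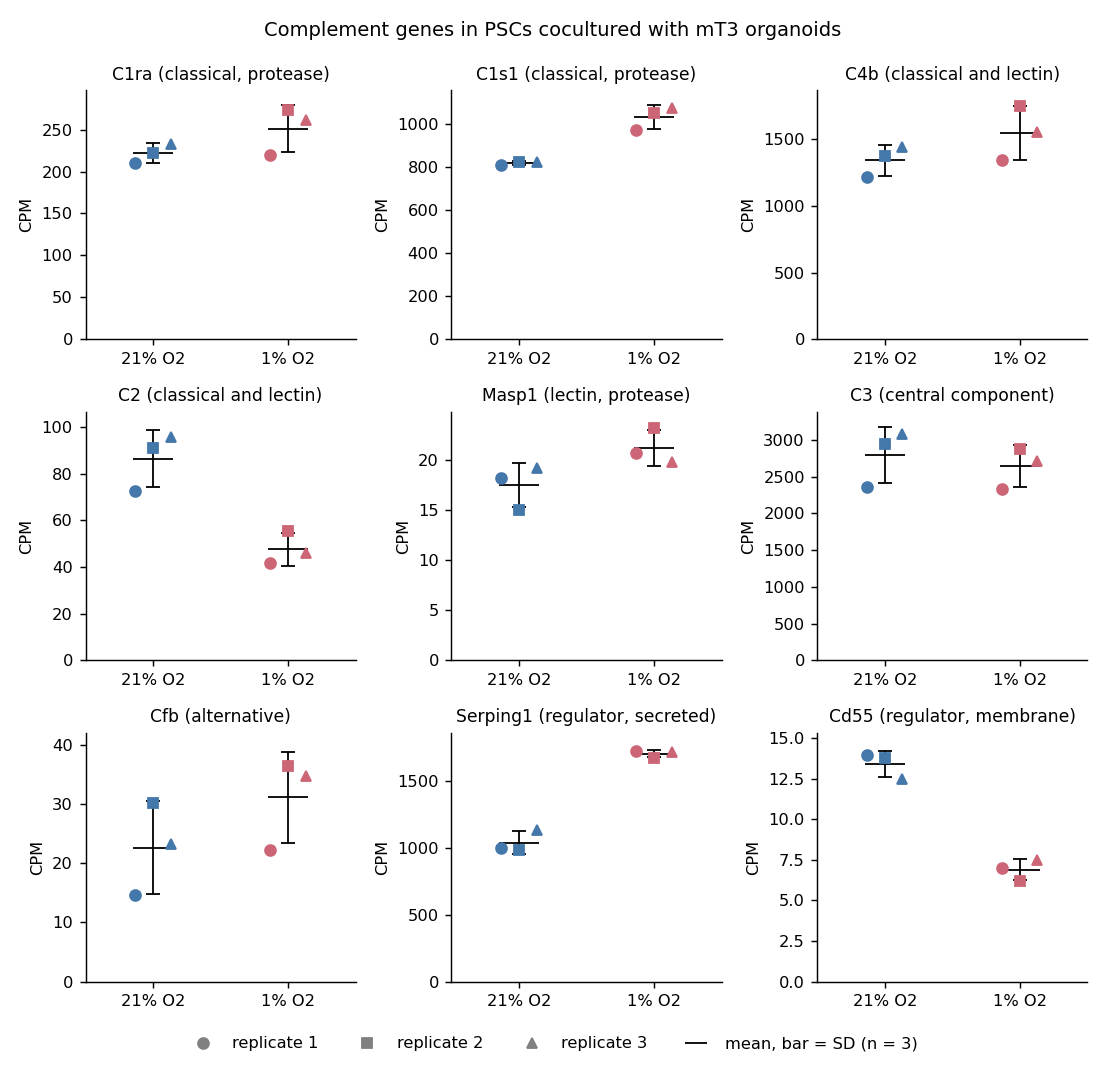
CPM of the 9 members (vertical axes from 0, each panel on its own scale) at 21% and 1% O2, 1 point per sample with the mean and SD (n = 3). The hypoxic points lie wholly above the normoxic ones for Serping1, C1s1 and Masp1 and wholly below for C2 and Cd55, and the groups overlap for C1ra, C4b, C3 and Cfb.

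The 6 libraries held 24749601 to 31925054 counts, so that 3 counts corresponded to 0.0943 to 0.122 CPM, and the smallest count of any member in any sample was 178 (Cd55). Replicates differed by more than counting noise, with a chi-square per degree of freedom of 5.68 to 22.5 between samples of a group, and no library was a repeat of another. All 10 fibroblast markers were present, summing to 28424 to 35619 CPM at 21% O2 and 30459 to 35302 CPM at 1% O2, and most of that sum was Col1a1, Col1a2 and Col3a1. Of the 10, Pdgfra and Pdpn were called higher in hypoxia (1.76-fold and 1.98-fold), and Lum and Thy1 lower (4.49-fold and 2.01-fold). Of the stellate cell markers, Des and Vim were present, whereas Gfap and Lrat were at or near 0 in all samples. Of 8 epithelial and tumor markers, Epcam, Cdh1, Krt8, Krt18 and Cldn4 were at 0 to 0.231 CPM and Krt7 at 0.314 to 1.38 CPM. Muc1 was at 2.12 to 3.21 CPM in normoxia and 3.35 to 4.24 CPM in hypoxia, and Krt19 was at 0.455 to 1.04 CPM at 21% O2 and 20.6 to 23.9 CPM at 1% O2. Macrophage markers were present, with values given beside C2 and the C1q genes.

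Neither protease of the C1 complex was called, although C1s1 was higher in every hypoxic sample. C1ra (chr6:124512405-124523443, plus strand, GRCm38, as are all gene coordinates below) was at 210.28, 222.64 and 233.37 CPM in the normoxic samples and at 219.71, 272.93 and 260.94 CPM in the hypoxic samples. The groups overlapped, and the log2 fold change of 0.18 (SE 0.08, edgeR adjusted p = 0.0914) had a 95% interval of -0.01 to 0.37. C1s1 (chr6:124530345-124542359, minus strand), its neighbor and partner, was at 808.14, 822.14 and 820.84 CPM in normoxia and at 968.66, 1047.8 and 1074.1 CPM in hypoxia. The groups did not overlap, and its log2 fold change was 0.33 (SE 0.06, edgeR adjusted p = 0.00126), a 1.26-fold difference that stayed below the fold of 1.5. Whether C1s1 and C1ra differed from each other in their response was not tested.

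Of the 2 substrates of C1s, C2 fell and C4b was not called. C4b (chr17:34728380-34743882, minus strand) was at 1213.2, 1370.8 and 1443.6 CPM in normoxia and at 1341.4, 1746.4 and 1555.8 CPM in hypoxia. Its groups overlapped and its log2 fold change was 0.21 (SE 0.10, edgeR adjusted p = 0.115), with a 95% interval of -0.03 to 0.44. C2 (chr17:34862604-34898265, minus strand), which supplies the protease of the C3-cutting enzyme of the classical and lectin pathways, was at 72.494, 91.091 and 95.546 CPM in normoxia and at 41.704, 55.493 and 45.916 CPM in hypoxia. Every hypoxic sample of C2 was below every normoxic one, and its mean fell from 86.4 ± 12.2 to 47.7 ± 7.07 CPM (SD, n = 3). The log2 fold change of C2 was -0.85 (SE 0.12, edgeR adjusted p = 0.000299), which is 1.81-fold lower in hypoxia. Per kilobase of exon, the ratio of C2 to C4b was 0.0879, 0.0977 and 0.0973 in normoxia and 0.0457, 0.0467 and 0.0434 in hypoxia, 2.08-fold lower with no overlap between the groups.

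Macrophages, which are themselves a known source of complement proteins, including C1q, properdin and C2, left a trace in these bulk samples that moved in the same direction as C2. Of 11 macrophage markers 7 were called lower and 0 higher, where 15.3% and 18.9% of all tested genes were. The same 7 had an adjusted p below 0.05 in edgeR's quasi-likelihood test, which 62.7% of all tested genes reached at any fold. When single samples were left out, 5 to 10 were called lower. The 4 not called were Ptprc, Mrc1, Ctss and Csf1r, at log2 fold changes of -0.59, -0.64, -0.56 and -0.24. The summed level of all 11 was 896.91 to 1578.6 CPM in normoxia and 457.96 to 824.28 CPM in hypoxia, 2.01-fold lower between the means. Most of that sum was Lyz2, and without it the sums of 244.16 to 414.69 CPM and 143.02 to 278.1 CPM overlapped. None of the 11 markers was at 0 in any sample, and the part of these cells in the level of C2 was not tested. In bulk RNA fewer cells of a type and less RNA per cell cannot be told apart.

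Masp1 (chr16:23449417-23520815, minus strand), the lectin pathway protease among the members, was among the least abundant. Its levels were 18.133, 14.992 and 19.19 CPM in normoxia and 20.617, 23.199 and 19.736 CPM in hypoxia. The hypoxic samples lay just above the normoxic ones, at a log2 fold change of 0.28 (SE 0.11, edgeR adjusted p = 0.0419), a 1.22-fold difference below the fold of 1.5. Leaving out single samples gave adjusted p values of Masp1 between 0.0322 and 0.149 in the same edgeR test, and 4 of these 6 fits put it above 0.05.

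C3 (chr17:57203970-57228136, minus strand), on which all pathways converge, had the highest mean per kilobase of exon of the members in normoxia and was not called. Its levels were 2364.5, 2950.4 and 3082.8 CPM in normoxia and 2325.2, 2881.9 and 2715.6 CPM in hypoxia. The groups overlapped, and the log2 fold change was -0.08 (SE 0.12, edgeR adjusted p = 0.548). The 95% interval of the fold change of C3, 0.787 to 1.13, does not reach a change of 1.5-fold in either direction.

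Cfb (chr17:34856374-34862518, minus strand), the factor B gene that lies next to C2 and encodes a protease of the same family, was the member with the largest SE of the log2 fold change. It was at 14.553, 30.136 and 23.166 CPM in normoxia and at 22.266, 36.378 and 34.633 CPM in hypoxia. The groups overlapped, with the lowest hypoxic sample below the middle normoxic one, and the log2 fold change was 0.46 (SE 0.25, edgeR adjusted p = 0.134). Its 95% interval of -0.10 to 1.03 reaches from below no change to 2.04-fold higher, and 2 of the 6 fits that each left out a sample called Cfb higher. Without normoxia replicate 2 its log2 fold change was 0.72 (edgeR adjusted p = 0.0225), and without hypoxia replicate 1 it was 0.65 (edgeR adjusted p = 0.0443). Per kilobase, the ratio of C2 to Cfb was 3.63, 2.21 and 3.01 in normoxia and 1.37, 1.11 and 0.967 in hypoxia. With length taken as the union of annotated exons, these 2 neighbors were thus near the same level in hypoxia. The ratio of Cfb to C3 overlapped between the groups, with means of 0.0145 ± 0.00376 and 0.0212 ± 0.00327 (SD, n = 3).

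Serping1 (chr2:84765387-84775444, minus strand), the C1 inhibitor gene, was the 1 member called higher. It was at 999.4, 983.86 and 1138.6 CPM in normoxia and at 1726.4, 1675.1 and 1722.8 CPM in hypoxia. The groups were far apart relative to their spread, with means of 1041 ± 85.2 and 1708 ± 28.6 CPM (SD, n = 3). The log2 fold change was 0.71 (SE 0.07, edgeR adjusted p = 3.39e-05), or 1.64-fold higher, and it stayed between 0.67 and 0.78 whichever sample was left out. Neither of its targets C1ra and C1s1 was called, and the ratio of their sum to Serping1, per kilobase, was 0.753 ± 0.0520 in normoxia and 0.563 ± 0.0410 in hypoxia (SD, n = 3), without overlap.

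Cd55 (chr1:130439027-130462744, minus strand), the membrane regulator, went the other way at a much lower level. It was at 13.937, 13.778 and 12.455 CPM in normoxia and at 6.99, 6.1907 and 7.5112 CPM in hypoxia. The groups did not overlap, and the mean fell from 13.4 ± 0.813 to 6.90 ± 0.665 CPM (SD, n = 3). With a log2 fold change of -0.96 (SE 0.11, edgeR adjusted p = 5.96e-05), Cd55 was 1.94-fold lower in hypoxia. The 2 regulators thus moved in opposite directions, and both changes were called.

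The start-site sequences of 4 members (C3, C1ra, C1s1 and Cd55) were in the RefSeq promoter table for GRCm38.p6, which gives 250 bases before and 50 bases after each annotated start. They are shown, read 5′ to 3′ on the strand of the gene, because Cd55 is the called member among them and the other 3 are the abundant fibroblast components whose changes were small. Capitals mark every match on either strand to a set of short motifs known from hypoxia and inflammatory regulation: ACGTG and GCGTG (core of the hypoxia response element), GGNNTTTCC (kappa B), TTGCNNAA (C/EBP), TTCNNNGAA (STAT) and GAAANNGAA (interferon regulatory factor).
Cd55 (chr1:130462695-130462994, minus strand): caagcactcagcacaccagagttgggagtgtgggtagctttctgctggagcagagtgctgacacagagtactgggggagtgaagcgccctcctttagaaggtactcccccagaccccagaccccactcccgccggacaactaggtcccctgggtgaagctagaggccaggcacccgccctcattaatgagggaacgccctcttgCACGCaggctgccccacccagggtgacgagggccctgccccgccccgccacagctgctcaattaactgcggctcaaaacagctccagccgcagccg
C3 (chr17:57228087-57228386, minus strand): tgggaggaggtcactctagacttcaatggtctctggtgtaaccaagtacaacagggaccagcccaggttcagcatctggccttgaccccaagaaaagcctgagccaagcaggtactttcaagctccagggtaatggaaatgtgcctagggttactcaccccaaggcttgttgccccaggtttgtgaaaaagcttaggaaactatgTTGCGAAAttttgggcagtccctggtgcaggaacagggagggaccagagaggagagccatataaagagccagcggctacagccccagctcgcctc
C1ra (chr6:124512371-124512670, plus strand): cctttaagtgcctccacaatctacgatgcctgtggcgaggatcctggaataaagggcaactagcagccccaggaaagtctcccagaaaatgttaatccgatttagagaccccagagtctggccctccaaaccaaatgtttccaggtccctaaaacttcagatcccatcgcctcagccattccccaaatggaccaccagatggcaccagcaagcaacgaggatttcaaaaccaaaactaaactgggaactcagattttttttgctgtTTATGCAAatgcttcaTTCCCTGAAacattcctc
C1s1 (chr6:124542310-124542609, minus strand): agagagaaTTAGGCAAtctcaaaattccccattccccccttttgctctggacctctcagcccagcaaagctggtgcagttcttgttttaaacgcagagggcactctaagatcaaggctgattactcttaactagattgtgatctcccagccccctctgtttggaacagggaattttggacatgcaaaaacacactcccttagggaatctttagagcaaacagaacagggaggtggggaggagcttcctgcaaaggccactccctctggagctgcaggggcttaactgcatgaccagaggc
The Cd55 window held 1 match to GCGTG, read on the opposite strand as CACGC, at bases -46 to -42 from the start, where 32.4% of all 32851 windows in the table hold this motif and 19.6% hold ACGTG. The C/EBP motif was found in C3 at -45 to -38, in C1s1 at -242 to -235 and in C1ra at 17 to 24 after the start, beside 10.8% of all windows. C1ra also held a STAT motif at 33 to 41, which 8.3% of windows have. None of these windows held ACGTG, the kappa B motif (5.82% of windows) or the interferon regulatory factor motif (8.56% of windows). A match is only a match of letters, and no binding was measured. For C1s1 the table gave a further, overlapping window from a second start, without a match, and the RefSeq start of C1ra lies inside the GENCODE gene, downstream of its first base.

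Per kilobase of exon, the ratio of activating components to regulators was lower in hypoxia. The levels of the 7 activating members summed to 1027.3, 1187.5 and 1228.3 CPM per kilobase in normoxia and to 1091.7, 1323 and 1258.1 CPM per kilobase in hypoxia, with overlapping groups and means of 1148 ± 106 and 1224 ± 119 (SD, n = 3). The 2 regulators summed to 432.72, 426 and 492.29 CPM per kilobase in normoxia and to 743.98, 721.76 and 742.55 CPM per kilobase in hypoxia, 1.63-fold higher. That ratio was 2.37, 2.79 and 2.50 in normoxia and 1.47, 1.83 and 1.69 in hypoxia, with no overlap between the groups. Serping1 made up 99.4% of the regulator sum in normoxia and 99.8% in hypoxia, so this ratio describes C1 inhibitor and holds next to nothing of Cd55. C3 contributed 47.3% of the activating sum in normoxia and 41.9% in hypoxia, and without it the ratio was 1.34 ± 0.0862 against 0.967 ± 0.0996 (SD, n = 3), still without overlap. By number of genes, 0 of 7 activating members were called higher and 1 lower by edgeR, with a median log2 fold change of 0.21. C1s1 and Masp1 had an edgeR adjusted p below 0.05 with higher levels in hypoxia, but stayed below the fold of 1.5. DESeq2 and limma called 0 activating members higher too. Of the 2 regulators, 1 was called in each direction. These sums and ratios are given without a test, and a two-sided exact permutation test of 3 against 3 samples cannot give a p below 0.1.

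**Figure D2:**
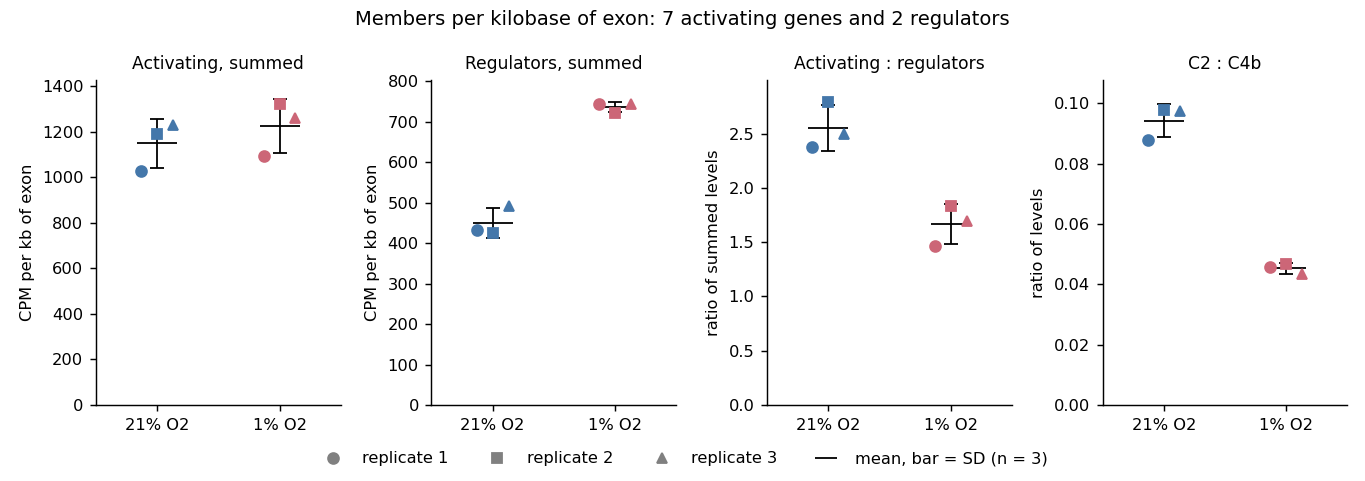
Summed CPM per kilobase of exon of the 7 activating members and of the 2 regulators, the ratio of these sums, and the ratio of C2 to C4b, at 21% and 1% O2 (1 point per sample, mean and SD, n = 3, all vertical axes from 0). The activating sums overlap between the groups, the regulator sums rise from 426 to 492.29 up to 721.76 to 743.98, and both ratios are lower in every hypoxic sample.

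The order of the members by level changed at 2 places. In normoxia the order per kilobase of exon was C3 (544 ± 74.3 CPM per kilobase), Serping1 (448 ± 36.6), C1s1 (261 ± 2.47), C4b (236 ± 20.7), C1ra (74.5 ± 3.88), C2 (22.3 ± 3.16), Cfb (8.01 ± 2.76), Cd55 (2.76 ± 0.168) and Masp1 (1.77 ± 0.222), each as mean and SD of 3 samples. Of neighbors in this order, only C3 and Serping1 overlapped between their samples. In hypoxia Serping1 (735 ± 12.3) stood above C3 (513 ± 55.6) without overlap, and Masp1 (2.15 ± 0.183) stood above Cd55 (1.42 ± 0.137), also without overlap. This order rests on the union of annotated exons, 4853 bases for Cd55, whose longest protein-coding transcript has 2533 bases. Another choice of length could change the order of genes at close levels. The remaining order was kept, with C1s1 at 329 ± 17.5, C4b at 272 ± 35.6, C1ra at 84.3 ± 9.36, C2 at 12.3 ± 1.82 and Cfb at 11.01 ± 2.72 CPM per kilobase, the last 2 overlapping. Together the 9 members took up 0.639 ± 0.0584% of all counts in normoxia and 0.724 ± 0.0596% in hypoxia (SD, n = 3), and these shares overlapped.

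Outside the members, a list of 51 further complement genes was examined by role. Of these, 32 were tested, 19 had too few counts, and 9 had no count in any sample, among them Mbl1, Fcnb, C8a, C8b, C4bp and Cpn1, genes best known from the liver or from white blood cells. In all 6 of the 32 were called higher and 12 lower, where 18.9% and 15.3% of all tested genes were, with a median log2 fold change of -0.40. Leaving out single samples gave 5 to 6 called higher and 9 to 15 called lower. Among 24 activating and terminal pathway genes 13 were tested, with 3 called higher and 6 lower. Among 17 regulators 11 were tested, with 3 called higher and 3 lower, and among 10 receptors 8 were tested, with 0 called higher and 3 lower.

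In the classical pathway, C1rl and C1s2, which lie near C1ra and C1s1, rose and the C1q genes fell. C1rl, a C1r-like protease, was at 12.089, 9.4507 and 9.8589 CPM in normoxia and at 24.072, 25.88 and 24.922 CPM in hypoxia (log2 fold change 1.25, SE 0.10, edgeR adjusted p = 7.87e-06). C1s2, a close copy of C1s1, was at 1.4245, 1.3284 and 1.9069 CPM in normoxia and at 3.2594, 2.6805 and 3.6142 CPM in hypoxia (log2 fold change 1.04, SE 0.21, edgeR adjusted p = 0.00242). Both were clear of overlap, at levels far below those of C1s1. The 3 chains of C1q, C1qa, C1qb and C1qc, together were at 170.01, 330.66 and 259.86 CPM in normoxia and at 74.455, 156.94 and 95.257 CPM in hypoxia. Each chain was called lower, with log2 fold changes of -1.26 (SE 0.29), -1.20 (SE 0.27) and -1.18 (SE 0.31). C1q is known as a product of macrophages. The 2.33-fold lower C1q sum stood beside a 2.01-fold lower sum of the 11 macrophage markers. Of these markers 7 were called lower, beside 15.3% of all tested genes. The part of macrophages in the C1q genes was not tested.

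**Figure D3:**
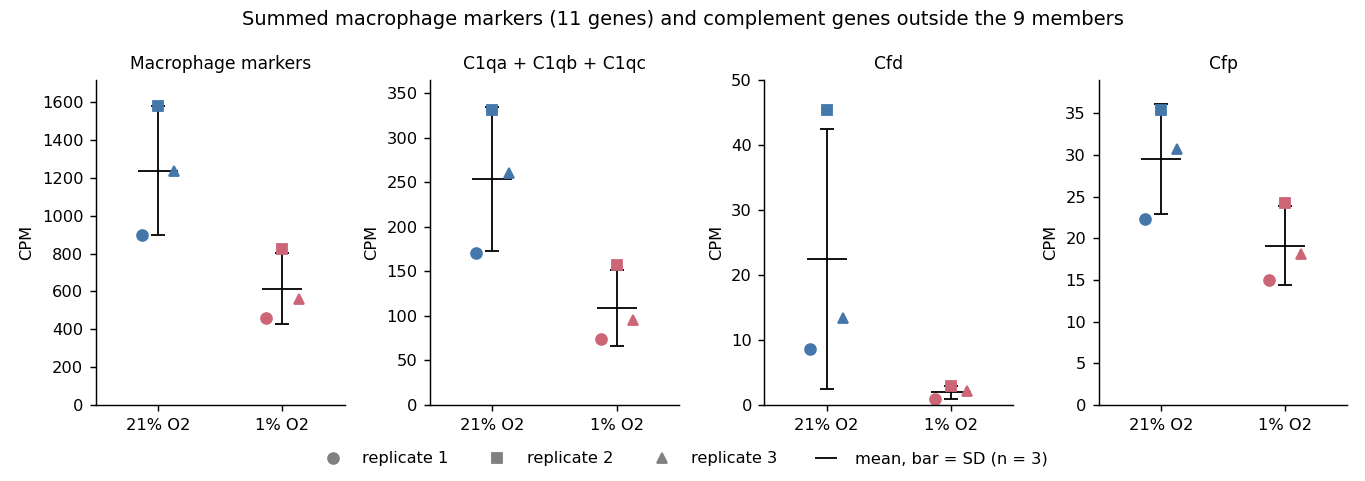
CPM at 21% and 1% O2 of the 11 summed macrophage markers, of C1qa, C1qb and C1qc summed, of Cfd and of Cfp (1 point per sample, mean and SD, n = 3, all vertical axes from 0). Hypoxic samples are below normoxic ones for the marker sum, the C1q sum and Cfd, and the groups overlap for Cfp.

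The alternative pathway genes Cfd and Cfp both fell. Cfd, which encodes factor D (adipsin), the protease that cuts factor B and a product of fat cells, was at 8.6238, 45.394 and 13.389 CPM in normoxia and at 0.86393, 2.872 and 2.1685 CPM in hypoxia (log2 fold change -3.48, SE 0.65, edgeR adjusted p = 0.00137). The groups did not overlap, but normoxia replicate 2 stood far above the other normoxic samples. With all samples Cfd was 11.1-fold lower in hypoxia, and without that sample 5.48-fold lower (log2 fold change -2.45, edgeR adjusted p = 0.00029). Cfp, which encodes properdin, a stabilizer of the alternative pathway enzyme made by white blood cells, overlapped between the groups and was called at a log2 fold change of -0.62 (SE 0.19, edgeR adjusted p = 0.0202). Its call was lost without normoxia replicate 2 or 3 or hypoxia replicate 1 or 3, where the log2 fold change was -0.47, -0.59, -0.47 and -0.58. It moved beside the macrophage marker sums given for C2, and their part in it was not tested. Neither alternative pathway member, C3 or Cfb, was called.

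Of the terminal pathway, Hc, the gene for C5, rose from 2.17 ± 0.627 to 4.31 ± 0.417 CPM (SD, n = 3; log2 fold change 0.99, edgeR adjusted p = 0.00347). C7, a part of the membrane pore, was at 9.2398, 9.7164 and 9.0474 CPM in normoxia and at 1.6493, 0.8935 and 1.2885 CPM in hypoxia. That made C7 7.37-fold lower (log2 fold change -2.88, SE 0.19, edgeR adjusted p = 2.98e-06), with no overlap.

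Other regulators were called in both directions. Cd59a, which encodes a membrane inhibitor of the pore, was at 17.248, 14.65 and 15.579 CPM in normoxia and at 7.1078, 6.4459 and 6.9455 CPM in hypoxia, 2.32-fold lower (log2 fold change -1.21, SE 0.10, edgeR adjusted p = 9.18e-06). Cfi, the protease that inactivates C3 and C4 fragments, fell from 1.24 ± 0.432 to 0.366 ± 0.127 CPM (SD, n = 3; log2 fold change -1.76, edgeR adjusted p = 0.00302). Cd46, a membrane cofactor of factor I, rose from 1.29 ± 0.438 to 3.44 ± 0.480 CPM (SD, n = 3; log2 fold change 1.41, edgeR adjusted p = 0.00129). Vtn, which encodes vitronectin, an inhibitor of the pore, rose with a log2 fold change of 1.08 (edgeR adjusted p = 0.0170), which was 0.80 and not called without hypoxia replicate 2 (edgeR adjusted p = 0.0725). Csmd1, a membrane regulator known mainly from the nervous system, rose with a log2 fold change of 2.22 (edgeR adjusted p = 0.000497) from at most 9 counts in a normoxic sample. Cd59b, at under 1 CPM in every sample, was the remaining gene called, at a log2 fold change of -0.84 (edgeR adjusted p = 0.0454). Its call was lost in each of the 6 fits that left out a sample, where the log2 fold change was -0.98 to -0.62. It was also lost with DESeq2, limma-voom, the replicate block and no low-count filter.

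Among receptors, C5ar1, the receptor for the C5 fragment, was called lower at a log2 fold change of -0.72 (SE 0.24, edgeR adjusted p = 0.0252) with overlapping groups, a call lost without normoxia replicate 2 or hypoxia replicate 1 or 3 (log2 fold change -0.50, -0.62 and -0.56). Cd93, first described as a C1q receptor, was called lower at a log2 fold change of -1.29 (SE 0.24, edgeR adjusted p = 0.00134). C1qbp, a mitochondrial protein that can also bind C1q, was called lower at a log2 fold change of -0.82 (SE 0.07, edgeR adjusted p = 1.32e-05), from 67.9 ± 6.44 to 38.4 ± 0.202 CPM (SD, n = 3). C3ar1, the receptor for the C3 fragment, was not called (log2 fold change -0.47). Nor were the integrin chains Itgam and Itgb2 of a receptor for C3 fragments (log2 fold change -0.0015 and -0.12). C5ar1, C3ar1, Itgam and Itgb2 are also known from macrophages, whose marker values are given beside C2. The part of these cells in the receptors was not tested.

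**Figure D4:**
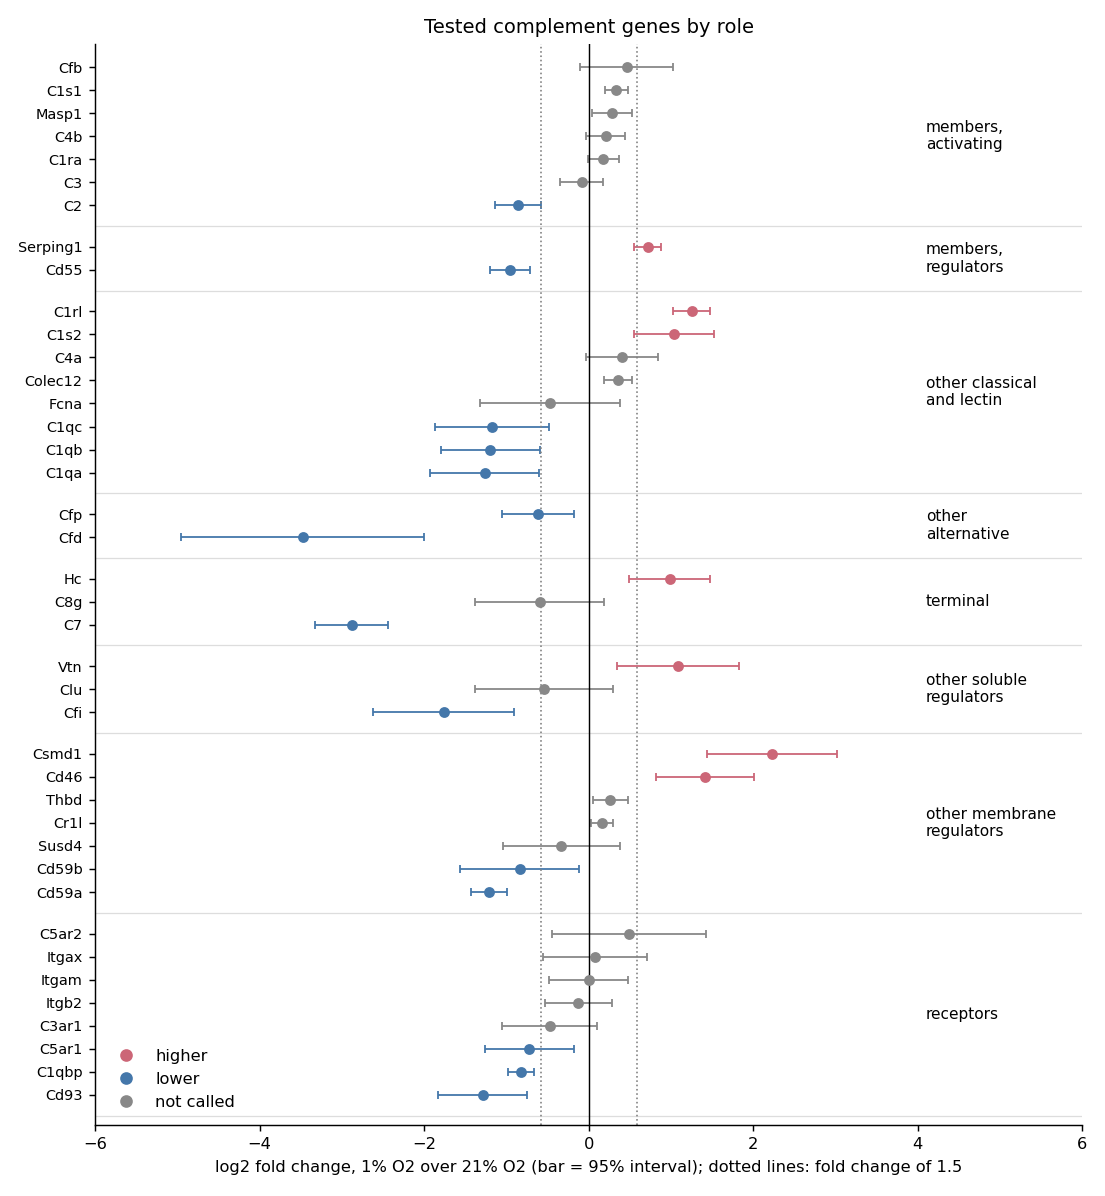
Log2 fold change (1% over 21% O2, horizontal axis) of the 9 members and of other tested complement genes, grouped by role, with 95% intervals, with colors for the call and dotted lines at a fold of 1.5. Of the members, Serping1 is the red point and C2 and Cd55 are the blue points, and in the groups outside the members calls in both directions occur among the classical, terminal and regulator genes.

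Genes within 100000 bases of the members were counted for 3 neighborhoods. Around C4b, Cfb and C2, which lie within the major histocompatibility complex on chromosome 17, 19 of 35 annotated genes other than the members were tested. Of these, 3 were called higher (Hspa1a, Hspa1b and Cyp21a2-ps) and 2 lower (Neu1 and Lsm2), beside 18.9% and 15.3% of all tested genes. Their median log2 fold change was 0.32. C2 was the 1 called member in this cluster, and neither Cfb next to it nor Zbtb12, which lies within its annotated span, was called, with log2 fold changes of 0.46 and -0.51. Around C1ra and C1s1, 3 of 7 annotated genes were tested, of which C1rl and C1s2 were called higher and Clstn3 lower. Around Cd55, 1 of 6 was tested, Gm15675, and it was not called (edgeR adjusted p = 0.110).

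Close copies and overlapping genes touch several members. Of the 50-base words in the longest transcript, 35.2% of those of C4b also occur in C4a and 48.0% of those of C1ra in C1rb. The share is 24.3% for C1s1 in C1s2 and 13.3% for Cd55 in Cd55b. A read that fits both copies over its whole length has to be shared out by the quantification, and such reads were not counted. In a sample the copies had 126 to 326 counts (C4a), 1 to 10 (C1rb), 35 to 115 (C1s2) and 0 (Cd55b), and each was far below its own member. Adding each copy to its member changed no call and left the log2 fold changes at 0.21 for C4b, 0.18 for C1ra, 0.34 for C1s1 and -0.96 for Cd55. C2 and Cfb share 42.8% and 79.5% of their exon length with the same-strand readthrough gene Gm20547, which had 0 counts in every sample. The antisense neighbors Gm16567 of C1s1 and Gm16083 of Cd55 had at most 2 counts in a sample, and Zbtb12 overlaps 4.16% of the exons of C2. Whether counting used the strand is not given in the sources used here.

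Patterns over the 6 samples were compared by the root mean square difference of centered log2 CPM, among 9789 genes with a mean of at least 10 CPM over all 6. The genes most like Serping1 were Fam114a2 (0.0276), Dennd4b, Llgl1, Phf21a and Acvrl1 (0.0414). For Cd55 they were Cks1b (0.0398), Sfxn5, Rpa1, Haus7 and Wdr6 (0.0536). None of these 10 genes is on the complement lists.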

How the data were processed

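RNA-seq of PSCs (3 samples at 21% O2, 3 at 1% O2) was analysed. The authors trimmed reads with Cutadapt, mapped them to GRCm38 with STAR 2.6.1b and deposited RSEM 1.3.1 expected counts per gene, which are whole numbers. The annotation release and the strand setting are not given in the sources used here. Of 55426 features, 55154 matched GENCODE M21, and 5 transgene features had 0 counts. Counts were filtered with filterByExpr, scaled by TMM and tested with edgeR 4.0.16 (quasi-likelihood F test, Benjamini-Hochberg) in R 4.3.3, with groups and replicate numbers from the labels. SEs are the absolute log2 fold change divided by the square root of F, and levels per kilobase use the union of annotated exons. DESeq2 1.42.0, limma 3.58.1 (voom), a replicate block, other scalings, filters and thresholds, and leaving out each sample were alternatives. The model script was tested on simulated counts. Members and gene lists were chosen with earlier results of these data known. Of the 51 further complement genes, those called at a mean of at least 1 CPM in either group are named, and for the likeness of patterns, the 5 genes nearest to the members with the highest and the lowest log2 fold change. Same-numbered samples were not treated as pairs. Floors of 3 counts cover counting error only. Protein sequences were not used here, and a few listed genes are not reported here by name.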

Additional observations from a re-analysis of the deposited data

How the results depend on the processing

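The calls of Serping1, C2 and Cd55 held under both other scalings, no low-count filter, DESeq2, limma-voom, the replicate block and each sample left out. With no fold threshold 3 members were higher. At a fold of 2 there were 0 higher and 0 lower by edgeR, DESeq2 or limma-voom. The edgeR adjusted p was nonetheless below 0.05 for 5 members. Over all genes, 5150 were higher and 5018 lower with no fold threshold, and 1929 and 1227 at a fold of 2. Leaving out 1 sample gave 1 to 2 members higher and 2 lower. Without normoxia replicate 2 or hypoxia replicate 1, Cfb became the second (range 0.22 to 0.72). C3 turned to 0.0011 without hypoxia replicate 1 (range -0.20 to 0.0011, adjusted p 0.127 to 0.994 over all alternatives). Same-numbered samples deviated together with correlations of 0.142, 0.139 and 0.038 over 16207 genes, and each sample correlated best with its own number, a hint from the data and not from the design. With the replicate block 3072 genes were higher and 2500 lower, 5467 of them among the 5547 called without it, and no member's call changed, with log2 fold changes of 0.72 for Serping1 and -0.96 for Cd55. Adjusted p values of edgeR under the block were 0.0247 for C4b, 0.0345 for C1ra and 0.00135 for Cfb, all under the fold of 1.5, and 0.0550 for Masp1. Members had at least 178 counts in a sample, whereas 19 of the 51 further genes had too few counts for a test.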

Other observations

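Genes known to act on complement genes moved in both directions. Of 24 cytokine, receptor and transcription factor genes 23 were tested, with 10 called higher and 5 lower by the same edgeR test, where 18.9% and 15.3% of all tested genes were. Il6, a cytokine that raises liver complement genes, rose 4.26-fold, from 8.95 ± 1.84 to 38.0 ± 13.0 CPM (SD, n = 3). Among the C/EBP factors, Cebpa fell from 325 ± 88.7 to 66.5 ± 7.57 CPM, Cebpd rose from 46.4 ± 5.37 to 156 ± 11.4 CPM, and Cebpb, at 352 ± 18.1 and 380 ± 20.3 CPM, was not called (SD, n = 3 each). Stat3 rose 1.57-fold. Of 19 acute-phase genes, which share such inducers with complement in the liver, 12 were tested, with 6 called higher and 4 lower, beside the same shares of all tested genes, 18.9% and 15.3%. Saa3 rose 4.76-fold, Cp 5.52-fold and Ptx3 2.17-fold, and Lcn2 rose from 2.57 ± 0.959 to 60.8 ± 14.0 CPM (SD, n = 3), whereas the 4 called lower were Serpina3m (10.7-fold), Itih4 (4.18-fold), Saa2 (1.83-fold) and Hp (1.58-fold). Serpina3m and Itih4 were at most 2.96 CPM in any sample. Without normoxia replicate 2 the log2 fold change of Itih4 moved from -2.06 to -1.23, and Hp was 1.37-fold lower and not called. Saa2 was not called without normoxia replicate 2 or 3 or hypoxia replicate 1 or 3 (log2 fold change -0.54, -0.90, -0.84 and -0.76).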
